A study of Mus musculus with 36 samples.

Results

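The early response of 3 month old mice to left pneumonectomy (PNX), in which the whole left lung is taken out, was measured as the difference between the right lung collected 1 day after surgery and the left lung removed during it. It was defined by the labels for age, day and lung, and comprises 6 of the 36 arrays of the study, with 3 arrays of right lungs and 3 of left lungs matched by pool. Each array held RNA pooled in equal amounts from 2 female C57BL6 mice aged 3 months, and the same mice gave the left and the right lung of a pool. All groups had the same surgery under ketamine and xylazine, with ampicillin before it, and buprenorphine was given against pain in the days after it, so that only the right lungs had been exposed to that drug. The study asked how the transcriptional response to PNX differs between young and middle aged mice. To place the day 1 response, it was compared with that of female C57BL6 mice aged 9 months on day 1, and with that of 3 month mice on day 3, each of 3 pools with left lungs of their own.

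By the methods of the study, the left lung was stored in RNAlater at surgery, whereas the right lung was flooded with RNAlater through a cannulated trachea and removed en bloc after death. The left lungs of the day lay on 1 chip and the right lungs on another. Surgery and its drugs, loss of the left lung, lung side, manner of collection and chip therefore cannot be told apart in this comparison. Whole tissue was arrayed, so fewer cells of a type and less RNA per cell cannot be told apart either. Before normalisation the 75th percentile of signal was 138.7 to 183.2 on the arrays of left lungs and 392.9 to 515.3 on those of right lungs, and precision is limited by how many arrays there are. The share of probes detected was 42.9% to 43.7% on the former and 45.1% to 47.1% on the latter. After normalisation the correlation across probes was 0.985 to 0.988 among left lungs, 0.989 to 0.99 among right lungs and 0.955 to 0.97 between them. The lung was recognisable in every sample, since Sftpc of alveolar type II cells read 15.28 to 15.49, Scgb1a1 of club cells 15.17 to 15.44 and Ager of alveolar type I cells 14.79 to 15.05 on the log2 scale.

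In rodents the remaining lung enlarges after PNX and cells of its alveolar walls divide. Tissue injury and surgery set off an acute phase response, in which IL-1 and IL-6 signals raise secreted defence proteins through transcription factors of the C/EBP, NF-kB and STAT families. A cell that starts to divide first makes the proteins that copy its DNA, under E2F factors, and later those that separate the chromosomes, whose genes often carry a CHR element near their start. Chaperones, the proteins that help others to fold in the endoplasmic reticulum, are raised through the ER stress element when folding capacity is short.

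The promoters of 6 genes named below are shown here, from the lists of acute phase, replication, mitosis and unfolded protein response genes. Each of these lists also held members that were not called on day 1. A link between promoter letters and response was not tested. Each is the 250 bases before the annotated RefSeq start in GRCm38.p6, written 5′ to 3′ along the gene's strand. They lie at chr7:46715677-46715926 (Saa3, minus strand), chr1:128359706-128359955 (Mcm6, minus), chr8:75109259-75109508 (Mcm5, plus), chr4:118437344-118437593 (Cdc20, minus), chr11:99024190-99024439 (Top2a, minus) and chr8:84846932-84847181 (Calr, minus). Capitals mark a C/EBP word (TTGCNNAA) in Saa3, E2F words (TTTGGCGC, TTTCCCGC, TTTGCCGC or TTTCGCGC) in Mcm6 and Mcm5, the CHR word (TTTGAA) in Cdc20 and Top2a, and the ER stress element (CCAAT and CCACG with any 9 bases between them) in Calr, each on either strand. A pair of E2F words overlap in Mcm6 and in Mcm5, and the ER stress element contains the CCAAT box.
Saa3: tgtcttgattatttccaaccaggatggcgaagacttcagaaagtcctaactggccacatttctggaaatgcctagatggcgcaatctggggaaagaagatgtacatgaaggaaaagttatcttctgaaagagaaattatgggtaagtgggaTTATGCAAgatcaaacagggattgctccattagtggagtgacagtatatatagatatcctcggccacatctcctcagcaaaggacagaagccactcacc
Mcm6: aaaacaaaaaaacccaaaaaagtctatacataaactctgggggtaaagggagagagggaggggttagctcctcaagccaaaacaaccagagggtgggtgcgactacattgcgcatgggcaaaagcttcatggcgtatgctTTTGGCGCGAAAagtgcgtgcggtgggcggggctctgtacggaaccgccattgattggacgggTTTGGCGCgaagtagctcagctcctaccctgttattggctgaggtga
Mcm5: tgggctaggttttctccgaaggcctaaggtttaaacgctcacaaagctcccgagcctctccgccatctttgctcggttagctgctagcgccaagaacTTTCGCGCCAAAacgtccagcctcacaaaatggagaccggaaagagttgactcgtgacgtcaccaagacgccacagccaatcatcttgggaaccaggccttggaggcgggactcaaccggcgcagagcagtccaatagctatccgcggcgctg
Cdc20: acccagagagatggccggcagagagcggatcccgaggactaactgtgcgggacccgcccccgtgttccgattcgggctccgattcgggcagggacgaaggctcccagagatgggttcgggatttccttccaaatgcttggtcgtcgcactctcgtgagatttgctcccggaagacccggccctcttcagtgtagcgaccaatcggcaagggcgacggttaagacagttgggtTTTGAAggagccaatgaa
Top2a: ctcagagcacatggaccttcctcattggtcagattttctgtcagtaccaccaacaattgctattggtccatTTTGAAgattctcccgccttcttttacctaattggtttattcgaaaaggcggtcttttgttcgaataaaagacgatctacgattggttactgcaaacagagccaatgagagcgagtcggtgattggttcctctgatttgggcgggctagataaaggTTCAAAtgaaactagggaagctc
Calr: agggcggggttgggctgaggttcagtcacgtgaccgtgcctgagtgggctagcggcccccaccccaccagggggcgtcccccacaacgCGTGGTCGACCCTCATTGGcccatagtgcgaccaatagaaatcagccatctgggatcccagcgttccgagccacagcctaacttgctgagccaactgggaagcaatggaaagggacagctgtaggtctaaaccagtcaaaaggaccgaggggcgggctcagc

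An E2F word lay in 6 of the 20 windows of replication genes (30%) and in 1 of the 14 windows of mitosis genes, against 1.86% of all 32851 windows. The CHR word lay in 6 of the 14 mitosis windows (42.9%) and in 2 of the 20 replication windows (10%), against 16% of all. A C/EBP word lay in 4 of the 9 windows of acute phase genes (44.4%), against 9.56% of all, and the ER stress element in 6 of the 18 windows of the unfolded protein response (33.3%), against 0.113% of all. The core of the hypoxia response element (ACGTG) lay in 10 of the 19 windows of hypoxia genes (52.6%), against 16.6% of all. The NF-kB word (GGG and TTTCC with any 2 bases between them) and the STAT word TTCNNNGAA each lay in 2 of the 9 acute phase windows, against 1.41% and 7.02% of all, and CCAAT in 12 of the 14 mitosis windows, 12 of the 20 replication windows and 33.8% of all. These 8 motifs were searched on both strands in windows of the same length, and a match describes the letters only.

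Of 11835 genes tested, 688 rose and 1059 fell in the right lung on day 1, which is 5.81% and 8.95% of the genes (14.8% in either direction, and 14.5% of the 15795 probes behind them). A gene was called at an adjusted p under 0.05 in limma and a change of at least 1.5-fold. The genes that rose moved further than those that fell, with 233 against 157 called genes at 2-fold or more and 48 against 0 at 4-fold or more. The groups did not overlap in 1712 of the 1747 called genes, and in 45.2% of all genes tested. The median change over all genes was −0.06 on the log2 scale. Levels are given below as normalised log2 intensity in pools 1, 2 and 3. Changes are right minus left lung on the same scale, with limma's standard error (SE) and Benjamini-Hochberg adjusted p. That SE rests on a spread estimated over the 6 groups of age and day and drawn towards that of all probes. It is therefore not the spread of the 3 pools shown.

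**Figure D1:**
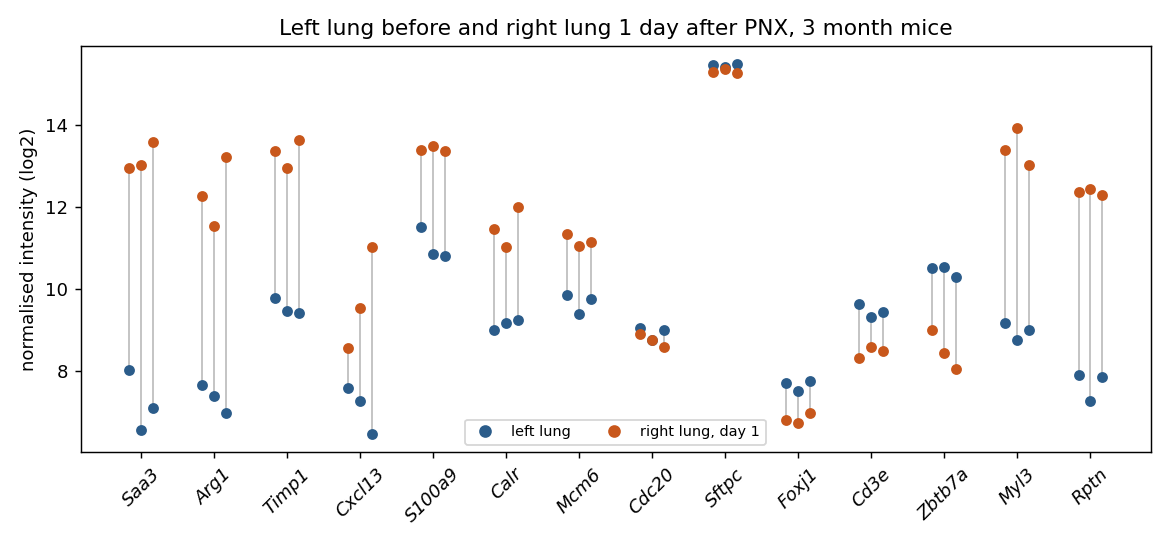
Normalised log2 intensity of 14 genes in the left lung (blue) and the right lung on day 1 (orange) of each 3 month pool, with a grey line joining the lungs of a pool. Saa3, Arg1, Timp1, Myl3 and Rptn lie far apart in the 2 lungs in every pool, Cdc20 and Sftpc lie close together, and Zbtb7a, Cd3e and Foxj1 lie lower in the right lung.

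Saa3, an acute phase protein of the serum amyloid A family that is made outside the liver, had the largest rise among the genes that passed the detection filter. It read 8.02, 6.56 and 7.10 in left lungs and 12.95, 13.03 and 13.59 in right lungs. All right lungs stood far above all left lungs, and the rise was 62.5-fold (5.97, SE 0.25, adjusted p = 4.67e-10). Serpina3n, a secreted protease inhibitor, read 12.24, 11.87 and 12.26 in left and 14.59, 14.60 and 14.58 in right lungs. The right lungs were nearly equal to each other and above every left lung, with a rise of 2.46 (SE 0.15, adjusted p = 3.03e-08). Lcn2, which withholds iron from bacteria, read 12.84, 13.13 and 12.78 in left and 14.69, 14.35 and 14.77 in right lungs, again without overlap, and rose by 1.69 (SE 0.17, adjusted p = 1.01e-05). Cp, the copper protein ceruloplasmin, rose by 1.08 (SE 0.11, adjusted p = 1.04e-05).

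Of 18 acute phase genes listed, 10 were tested, of which 5 rose and 0 fell, with a median of 0.50. Haptoglobin (Hp, −0.20) and the endotoxin binding protein Lbp (−0.01) were not called. Of the other 8, Saa1 and Orm2 were detected in all 3 right lungs with a probe that no left lung showed. The bound was at least 13.8-fold for that probe of Saa1 (adjusted p = 1.79e-09), whose other probe was detected in 2 left lungs, and at least 2.24-fold for Orm2 (adjusted p = 0.000113). Such a bound sets the mean of the right lungs against the lowest signal detected on each left lung array. Probes picked for detection on 1 lung side had to differ. The adjusted p of such a bound, here and below, is therefore no independent support. The arrays of right lungs were also brighter before normalisation, and what this adds to such detection was not tested.

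The markers of neutrophils rose together. All 8 tested of 17 listed were higher and without overlap between the lungs, with a median of 2.06, and all 8 kept the call in each alternative processing and without any pool. Clec4d, a lectin receptor of myeloid cells, read 7.57, 6.76 and 7.95 in left and 9.79, 9.61 and 10.82 in right lungs, with a rise of 2.65 (SE 0.20, adjusted p = 4.47e-07). S100a9, a calcium binding protein of neutrophil granules and cytosol, read 11.52, 10.85 and 10.80 in left and 13.39, 13.49 and 13.38 in right lungs, with a rise of 2.36 (SE 0.26, adjusted p = 1.46e-05). Both genes were high in every right lung and none of the ranges met. Csf3r, the receptor for the granulocyte growth factor G-CSF, rose by 2.13 (SE 0.26, adjusted p = 3.16e-05) with both of its probes called, and Mmp9, the gelatinase that neutrophils store, by 1.99 (SE 0.25, adjusted p = 4.35e-05). The summed linear level of the 17 markers went from 14494 to 21064 over left lungs to 52408 to 58210 over right lungs.

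Chemokines, the secreted proteins that draw leukocytes, had 6 of 17 tested genes higher and 2 lower (median 0.34). Of all genes tested 5.81% rose and 8.95% fell, so the count of lower chemokines lay near that background. Ccl9, which draws myeloid cells in mice, read 10.43, 10.38 and 10.25 in left and 12.60, 12.61 and 13.29 in right lungs, and rose by 2.48 (SE 0.24, adjusted p = 4.89e-06). Cxcl1, a ligand of the neutrophil receptor CXCR2, read 6.88, 6.45 and 6.77 in left and 8.08, 8.31 and 9.48 in right lungs, and rose by 1.92 (SE 0.39, adjusted p = 0.00184). Cxcl13, which draws B cells, read 7.59, 7.27 and 6.47 in left and 8.56, 9.55 and 11.02 in right lungs, and rose by 2.60 (SE 0.54, adjusted p = 0.00203). The right lung of pool 3 was the highest for each of the 3 genes, with a wide spread between pools for Cxcl13 and Cxcl1, and no left lung reached a right lung. The platelet chemokine Cxcl4 rose by 1.79 (SE 0.20, adjusted p = 1.58e-05), and Cx3cl1, the membrane bound fractalkine, fell by 1.13 (SE 0.15, adjusted p = 6.79e-05). Without pool 1 or without pool 3, 1 chemokine in place of 2 was called lower. Ccl24 and Ccl2 were detected in right lungs only. Ccl24, an attractant of eosinophils, read 8.31, 7.99 and 10.65 there (at least 9.02-fold, adjusted p = 0.000171). Ccl2, an attractant of monocytes, read 7.52, 7.07 and 9.09 (at least 4.23-fold, adjusted p = 0.000716), and pool 3 was again the highest for both.

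Il1b, the inflammatory cytokine, read 9.07, 8.55 and 8.12 in left and 9.72, 9.51 and 11.21 in right lungs. It was higher in every right lung, most of all in pool 3, and rose by 1.57 (SE 0.32, adjusted p = 0.00201). It was 1 of 4 genes that rose among 15 tested of the IL-1 and NF-kB pathway (median 0.15), a count that fell to 1 without pool 3. The decoy receptor Il1r2, which binds IL-1 without signalling, was detected in right lungs only (at least 3.01-fold, adjusted p = 0.000113). In the IL-6 and STAT3 pathway 1 of 13 genes rose and 1 fell, near the background of all genes (0 rose without pool 1 or pool 3, and 2 fell without pool 2 or pool 3), and Il6 itself was detected on none of the 6 arrays. Il11, a cytokine of the IL-6 family, was detected in right lungs only (at least 1.97-fold, adjusted p = 0.0017).

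Arg1, the arginase that marks alternatively activated macrophages in mice, had the second largest rise among the genes that passed the detection filter. It read 7.67, 7.40 and 6.98 in left lungs and 12.29, 11.54 and 13.22 in right lungs, with no overlap and a rise of 31.9-fold (5.00, SE 0.35, adjusted p = 1.58e-07). Retnla, a secreted protein of the same macrophage state and of airway epithelium, read 12.61, 11.88 and 12.23 in left and 14.77, 14.06 and 14.30 in right lungs, and rose by 2.14 (SE 0.33, adjusted p = 0.000212). Every right lung was above every left lung for both. Of 11 tested genes of this list 4 rose and 0 fell, with a median of 0.50, and 2 rose without pool 1. Of 9 tested alveolar macrophage markers 2 rose and 1 fell, with a median of 0.07, against 5.81% and 8.95% of all genes. The summed level of the 14 on the array was 43487 to 50224 in left and 42059 to 43745 in right lungs, which overlap. Among them Marco, a scavenger receptor, rose by 1.43 (SE 0.18, adjusted p = 5.06e-05). Ear2, a ribonuclease whose 4 probes were all called, fell by 0.62 (SE 0.10, adjusted p = 0.000375; 0.53 with adjusted p = 0.00944 without pool 3, under the fold threshold). Of 5 tested monocyte markers 1 rose, Fcgr1, the high affinity receptor for IgG on monocytes and macrophages (1.26, SE 0.25, adjusted p = 0.00159). F13a1, the clotting factor XIII subunit that monocytes and platelets carry, rose by 1.74 (SE 0.14, adjusted p = 9.48e-07).

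Genes of DNA replication rose on day 1, while most genes of mitosis were not called. Mcm6, a subunit of the replicative helicase, read 9.86, 9.40 and 9.75 in left and 11.33, 11.05 and 11.15 in right lungs, and rose by 1.51 (SE 0.14, adjusted p = 2.92e-06) with all 3 of its probes called. Mcm5, another subunit, read 10.06, 9.87 and 9.95 in left and 11.04, 10.95 and 10.91 in right lungs, and rose by 1.01 (SE 0.15, adjusted p = 0.000178). Tk1, the thymidine kinase of S phase, read 7.44, 7.06 and 7.34 in left and 9.07, 8.94 and 9.06 in right lungs, and rose by 1.74 (SE 0.28, adjusted p = 0.000272). The 3 genes were higher in each right lung by a margin wider than the spread among lungs of a side. Rrm1, a subunit of the reductase that makes deoxynucleotides, rose by 1.02 (SE 0.17, adjusted p = 0.00034). In all, 11 of 21 tested replication genes rose and 0 fell, with a median of 0.68, and 7 rose without pool 1.

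Cdc20, the activator of the anaphase promoting complex, read 9.06, 8.75 and 8.99 in left and 8.90, 8.76 and 8.59 in right lungs. The groups overlapped and the change of −0.19 was not called (SE 0.17, adjusted p = 0.437). Plk1, a kinase of mitotic entry, read 7.62, 7.50 and 7.57 in left and 7.43, 7.64 and 7.46 in right lungs, again overlapping, at −0.05 (SE 0.23, adjusted p = 0.886). Of 14 tested mitosis genes 3 rose and 0 fell, with a median of 0.24, and 1 rose without pool 1 or without pool 2. Birc5, the survivin subunit of the chromosomal passenger complex, read 7.88, 7.32 and 7.62 in left and 8.87, 8.41 and 8.36 in right lungs, and rose by 0.94 (SE 0.17, adjusted p = 0.000769). Cdc2a, the kinase now named Cdk1, rose by 0.99 (SE 0.25, adjusted p = 0.00734), with an adjusted p of 0.0576 without pool 1 and 0.0527 without pool 2. Top2a was called as higher too, but kept the call in only 8 of 16 alternatives. Its limma adjusted p was 0.0679, 0.119 and 0.133 without pools 1, 2 and 3, at changes of 0.78, 0.65 and 0.66. Mki67, the Ki-67 protein used to stain dividing cells, was at 0.53 (SE 0.17, adjusted p = 0.0268), under the fold threshold.

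Both groups were set against day 3, when other mice with left lungs of their own were used. The response of day 1 differed from that of day 3 in 333 genes, 2.81% of those tested, of which 110 were higher on day 1 and 223 lower. All 14 mitosis genes were lower on day 1, with differences of −2.73 to −1.47, and 0 of 21 replication genes differed, with differences of −1.10 to 0.21 and 4 genes at an unadjusted p under 0.05 in limma. Cdc20 read 11.28, 11.18 and 10.70 in right lungs of day 3, above every right lung of day 1, and its difference was −2.60 (SE 0.24, adjusted p = 4.05e-05). Mcm6 read 10.79, 11.31 and 11.09 there, which overlaps the right lungs of day 1. The count of mitosis genes lower on day 1 ranged from 10, without the pools numbered 3, to 14 over the alternatives, and it was 12 of the 12 genes left under a stricter detection filter. That of replication genes ranged from 0 to 4, the highest with the mean of 9 left lungs as the baseline. The medians on days 1, 3 and 7 were 0.68, 1.09 and 0.98 for replication and 0.24, 2.41 and 2.19 for mitosis.

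**Figure D2:**
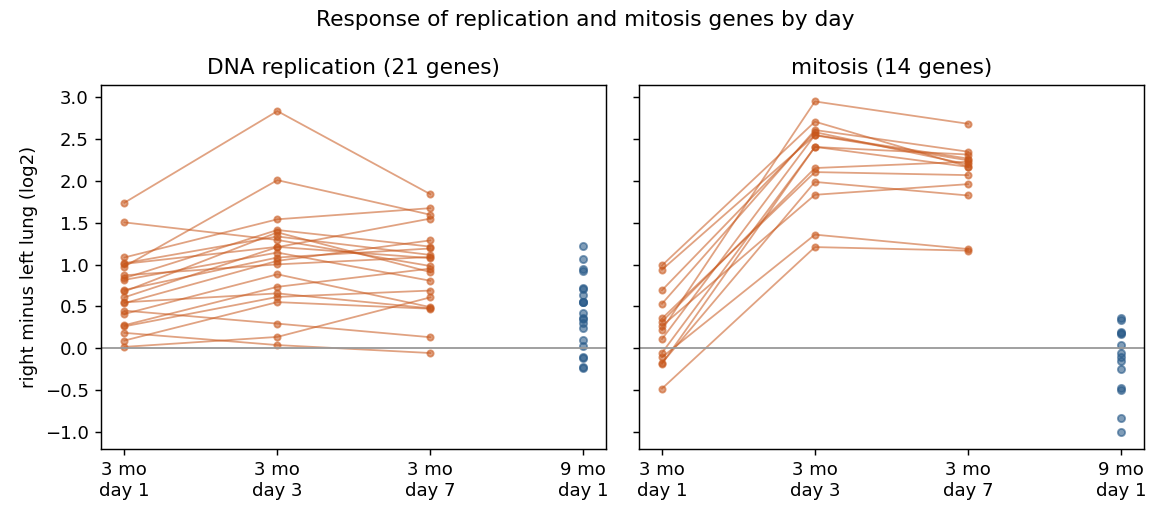
Right minus left lung on the log2 scale for 21 replication genes and 14 mitosis genes, with a line per gene through days 1, 3 and 7 of 3 month mice (orange) and separate points for 9 month mice on day 1 (blue). The mitosis genes have a median of 0.24 on day 1 and of 2.41 on day 3, whereas the replication genes have a median of 0.68 on day 1 already.

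Matrix genes were higher in part. Col1a1, the main chain of type I collagen, read 10.63, 10.25 and 10.63 in left and 12.35, 12.24 and 12.50 in right lungs, and rose by 1.86 (SE 0.20, adjusted p = 1.3e-05). Of 11 tested interstitial collagens 6 rose and 0 fell, with a median of 0.59, among them Col8a1 (1.17, SE 0.14, adjusted p = 3.95e-05), Col3a1 (1.14, SE 0.22, adjusted p = 0.00107) and Col6a2 (0.95, SE 0.14, adjusted p = 0.000127). Col3a1, a fibrillar chain, was lower on day 1 than on day 3 by 1.42 (SE 0.30, adjusted p = 0.0173; 0.0762 without the pools numbered 3), and Col8a1, a short chain collagen of vessel walls, was higher by 1.08 (SE 0.20, adjusted p = 0.0094). Of 18 genes of elastic fibres and crosslinking 6 rose and 1 fell, with a median of 0.23. Fbln2, a fibulin, rose by 1.35 (SE 0.24, adjusted p = 0.000599), and Emilin2 by 1.20 (SE 0.19, adjusted p = 0.000321). Lum and Dcn, small proteoglycans of fibroblasts, rose by 1.35 (SE 0.20, adjusted p = 0.000161) and 0.92 (SE 0.16, adjusted p = 0.000621). Of the 17 tested lung fibroblast markers, to which both belong, 4 rose, 1 fell and 12 were not called, with a median of 0.11.

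Timp1, which inhibits matrix metalloproteinases, had a rise of 13.5-fold. It read 9.79, 9.48 and 9.42 in left and 13.38, 12.95 and 13.63 in right lungs, with wide separation (3.76, SE 0.23, adjusted p = 5.06e-08, both probes called). Mmp3, the stromelysin, rose by 1.32 (SE 0.24, adjusted p = 0.000677), and these 2 genes with Mmp9 made up the 3 that rose among 18 tested proteases and inhibitors. Thbs3, a thrombospondin, read 10.49, 10.62 and 10.59 in left and 9.38, 9.32 and 8.89 in right lungs, and fell by 1.37 (SE 0.16, adjusted p = 2.52e-05). Lama3, a laminin chain of epithelial basement membranes, read 11.78, 11.91 and 11.67 in left and 10.88, 10.79 and 10.83 in right lungs, and fell by 0.95 (SE 0.10, adjusted p = 8.71e-06). Both were lower in every right lung. Of 20 basement membrane genes 3 rose and 2 fell, with a median of −0.19, and 0 rose without pool 1 and 1 fell without pool 3. The count that fell lay near the 8.95% of all genes that fell.

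Genes of the response to low oxygen and of protein folding rose in part. Pgk1 and Eno1, enzymes of glycolysis, rose by 1.12 (SE 0.12, adjusted p = 1.01e-05) and 0.96 (SE 0.17, adjusted p = 0.000504), and Ankrd37, a target of HIF factors, by 1.39 (SE 0.21, adjusted p = 0.000195). Of 14 hypoxia genes 6 rose and 0 fell, with a median of 0.46, while Vegfa, the growth factor of vessels, was at −0.32 and was not called. Calr, the lectin chaperone calreticulin, read 8.99, 9.17 and 9.24 in left and 11.47, 11.03 and 12.01 in right lungs. It was higher in each right lung by more than the spread of either side, and rose by 2.37 (SE 0.31, adjusted p = 6.67e-05). Hyou1, another chaperone of the endoplasmic reticulum, read 7.00, 7.02 and 6.81 in left and 8.67, 8.18 and 8.72 in right lungs, and rose by 1.58 (SE 0.21, adjusted p = 6.16e-05). Ddit3, the stress factor CHOP, went the other way and fell by 0.94 (SE 0.11, adjusted p = 2.52e-05) with both probes called. Of 19 genes of the unfolded protein response 5 rose and 1 fell, with a median of 0.34, and 3 rose without pool 1 or with left lungs of other chips as the baseline.

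Hmox1, the heme oxygenase raised by oxidants and heme, read 8.79, 8.93 and 9.14 in left and 10.30, 10.00 and 10.87 in right lungs, and rose by 1.43 (SE 0.21, adjusted p = 0.00013). The metallothionein Mt1 rose by 1.10 (SE 0.17, adjusted p = 0.000247), and in all 4 of 13 tested NRF2 targets and metallothioneins rose and 0 fell (median 0.54). Glucocorticoid targets were mixed, with 3 higher and 4 lower of 14, and 2 lower without pool 2 or pool 3. The 20 tested subunits of oxidative phosphorylation and the 12 tested clock genes gave 0 calls in limma, with 7 and 3 genes at an unadjusted p under 0.05 and medians of 0.21 and −0.23. Of 22 tested ligands and receptors of lung growth factors 1 rose and 5 fell (median −0.08), among them Igf1r, the receptor for IGF-1, which fell by 0.77 (SE 0.15, adjusted p = 0.00114), and the count that fell was 3 without pool 1 and the count that rose 2 without pool 3. Ntrk2, the receptor for the neurotrophin BDNF, read 7.09, 7.11 and 6.51 in left and 10.34, 9.53 and 10.37 in right lungs. It was among the 12 tested genes with the largest rise, without overlap (3.18, SE 0.26, adjusted p = 1.17e-06).

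**Figure D3:**
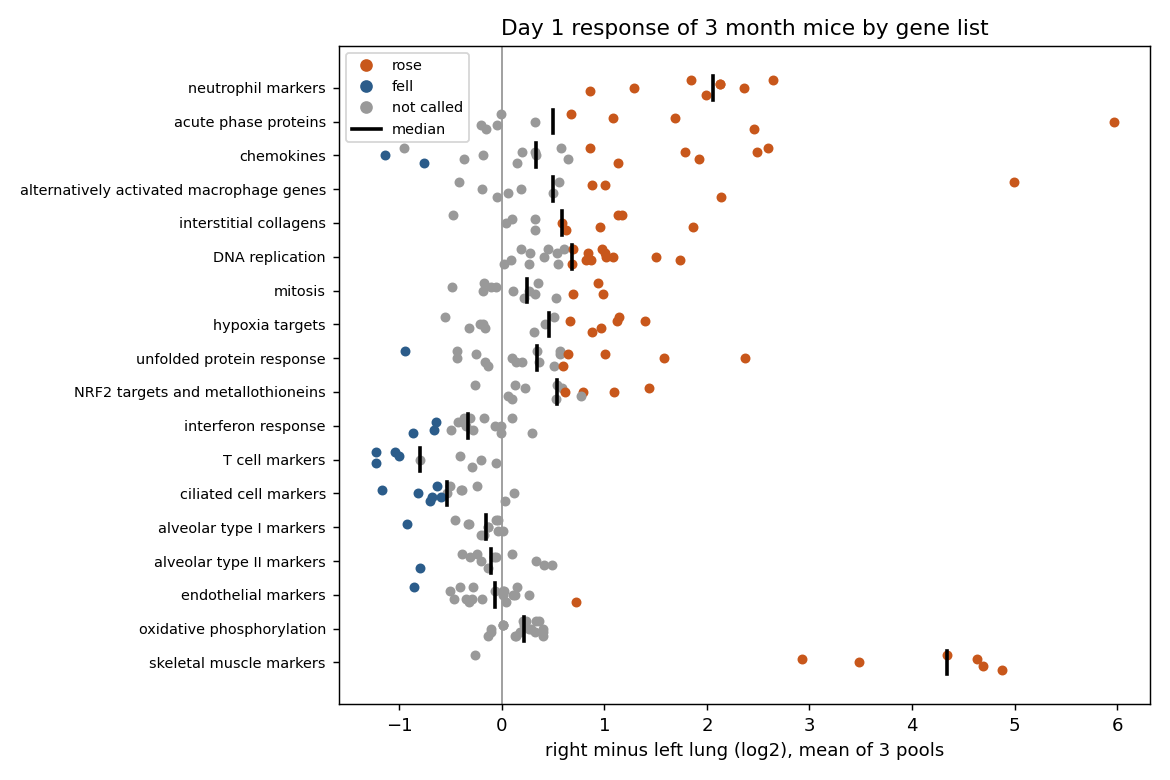
Right minus left lung on the log2 scale for each tested gene of 18 lists (orange rose, blue fell, grey not called), with the median of a list as a black bar. Neutrophil and skeletal muscle markers lie furthest to the right, with medians of 2.06 and 4.34, T cell markers to the left at −0.80, and alveolar, endothelial and oxidative phosphorylation genes around 0.

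Among the genes that fell, Zbtb7a, a transcriptional repressor of the POK family, had the largest change. It read 10.53, 10.54 and 10.29 in left and 9.01, 8.44 and 8.05 in right lungs, and fell by 1.95 (SE 0.18, adjusted p = 3.25e-06), or 3.87-fold. Scube2, a secreted protein that helps to release hedgehog ligands, read 10.55, 10.20 and 10.27 in left and 8.45, 8.68 and 8.41 in right lungs, and fell by 1.83 (SE 0.23, adjusted p = 4.21e-05). Cdh16, a cadherin known from kidney and thyroid epithelium, read 10.15, 10.09 and 10.15 in left and 8.63, 8.27 and 8.36 in right lungs, and fell by 1.71 (SE 0.13, adjusted p = 4.57e-07). All 3 genes were well below the left lungs in each pool. The 12 genes with the largest fall also included Scn3b, a sodium channel subunit (−1.72, SE 0.23), Decr1, an enzyme of fatty acid oxidation (−1.50, SE 0.19), Itih1, a carrier of hyaluronan (−1.50, SE 0.19), Limd2 (−1.52, SE 0.16), and Cd6, a receptor of T cells whose 3 probes were all called (−1.48, SE 0.21). The proapoptotic Bbc3 fell by 1.09 (SE 0.15, adjusted p = 0.000102) and the immediate early gene Jun by 1.20 (SE 0.17, adjusted p = 0.000122).

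Lymphocyte genes were lower. Cd3d, a chain of the T cell receptor complex, read 10.32, 9.65 and 10.05 in left and 8.57, 8.71 and 9.04 in right lungs, and fell by 1.23 (SE 0.20, adjusted p = 0.000385). Cd3e, another chain, read 9.63, 9.33 and 9.45 in left and 8.32, 8.58 and 8.50 in right lungs, and fell by 1.00 (SE 0.18, adjusted p = 0.000698) with both probes called. No right lung reached a left lung for either. Of 9 tested T cell markers 4 fell and 0 rose, with a median of −0.80, and of 3 tested NK cell markers 2 fell, among them Klrd1, a lectin receptor of NK cells (−1.09, SE 0.19, adjusted p = 0.000532), with 1 left without pool 1. Of 7 B cell markers 3 fell, but 0 did so against left lungs of other chips or without pool 1 or pool 2. Of 16 interferon response genes 3 fell and 0 rose, with a median of −0.33, and 0 fell against left lungs of other chips. The summed level of 14 T cell markers was 6377 to 8207 in left and 3922 to 4658 in right lungs.

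Few markers of alveolar and endothelial cells were called. Their counts lay near the shares of all genes tested, of which 5.81% rose and 8.95% fell. Of 12 alveolar type I and 12 type II markers 1 fell in each, Emp2, a membrane protein (−0.92, SE 0.09, adjusted p = 4.89e-06), and Lyz1, a lysozyme (−0.80, SE 0.16, adjusted p = 0.00156). Sftpc read 15.46, 15.42 and 15.49 in left and 15.30, 15.38 and 15.28 in right lungs and was not called (−0.14, SE 0.10, adjusted p = 0.329), and neither was Ager (−0.06, SE 0.09, adjusted p = 0.678). Of 19 endothelial markers 1 rose and 1 fell (2 without pool 1), and Pecam1 (0.26, SE 0.15, adjusted p = 0.213) and Cdh5 (0.11, SE 0.12, adjusted p = 0.492) were not called. At an unadjusted p under 0.05 in limma, 8 of the 19 were lower and 1 higher. The summed level of type I markers was 198743 to 204488 in left and 168887 to 181039 in right lungs. That of 20 endothelial markers was 176967 to 179418 and 150751 to 161393. Both were lower without overlap, while the type II sums overlapped (268524 to 283098 and 266624 to 277314). Of 13 ciliated cell markers 6 fell and 0 rose, with a median of −0.53. Ccdc113, a protein of the axoneme and its base, read 10.00, 9.79 and 10.07 in left and 8.84, 8.78 and 8.73 in right lungs, and fell by 1.17 (SE 0.19, adjusted p = 0.000326). Foxj1, the transcription factor that makes cells ciliated, read 7.70, 7.51 and 7.75 in left and 6.79, 6.74 and 6.98 in right lungs, and fell by 0.81 (SE 0.15, adjusted p = 0.000755). Its left lungs were themselves higher by 0.86 than those of the day 3 and day 7 cohorts, and against the latter the right lungs differed by 0.05. Against those left lungs 3 in place of 6 ciliated markers fell.

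The left lungs were taken before PNX in every cohort, so they show how far cohort and chip moved the baseline. The left lungs of day 1 differed from the other left lungs of 3 month mice in 510 probes (3.23%), 213 higher and 297 lower (23 and 64 with the authors' own log2 values), or 2.81% of genes. When the right lungs of day 1 were set against the left lungs of the other chips, 18.4% of genes were called. Of the 1747 genes called within pools 1180 were called in the same direction there, 494 higher and 686 lower, and 8 had the opposite sign. Spp1, the matricellular protein osteopontin, was higher by 1.07 within pools (SE 0.17, adjusted p = 0.000241) but by 0.07 against the other left lungs, and its left lungs were lower by 1.00 than those. Wdr13 and Ppp1r1b, which fell by 1.65 and 1.47 within pools, had left lungs higher by 1.02 and 0.67 and fell by 0.62 and 0.80 against the others.

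Genes of striated muscle and of cornified squamous epithelium, tissues that are no part of the alveolar lung, were high in the right lungs. Of the 12 genes with the largest rise among those that passed the detection filter, Tnni2, Mylpf, Ckm, Atp2a1, Myl1 and Trim72 belong to skeletal muscle, Myl3 to slow and cardiac muscle and Rptn to squamous epithelium. Tnni2, the fast troponin I, read 8.73, 9.64 and 8.27 in left and 13.60, 14.10 and 13.57 in right lungs, with a rise of 29.4-fold (4.88, SE 0.58, adjusted p = 2.9e-05). Atp2a1, the calcium pump of fast muscle, read 7.27, 10.33 and 7.52 in left and 12.66, 13.21 and 12.27 in right lungs (4.34, SE 0.70, adjusted p = 0.000315). Pool 2 had the highest left lung for both, still below every right lung. Of 7 tested skeletal muscle markers 6 rose, with a median of 4.34, and the summed level of all 16 on the array was 2367 to 8311 in left and 66571 to 105808 in right lungs. Over the whole study that sum was 2076 to 8311 in the 18 left lungs and 1848 to 105808 in the 18 right lungs, which overlap. Of 9 tested heart muscle markers 4 rose and 0 fell, with a median of 0.53, and 2 rose without pool 3. They were Myl3 (4.48, SE 0.76, adjusted p = 0.000455), the atrial hormone Nppa (1.84, SE 0.45, adjusted p = 0.00596; 0.0943 without pool 3), Sln, an inhibitor of the calcium pump (1.17, SE 0.27, adjusted p = 0.00374), and the atrial light chain Myl7 (0.60, SE 0.21, adjusted p = 0.043; 0.0696, 0.135 and 0.21 without pools 1, 2 and 3). Myh6, the cardiac myosin heavy chain (0.09, SE 0.20, adjusted p = 0.781), and Tnni3, cardiac troponin I (−0.01, SE 0.32, adjusted p = 0.977), were not called. The summed level of the 11 heart markers on the array was 16165 to 17139 in left and 30052 to 37813 in right lungs. Adipoq, the fat cell hormone adiponectin, rose by 2.25 (SE 0.42, adjusted p = 0.000946), and Msln and Upk3b of the pleural mesothelium rose by 1.98 (SE 0.24, adjusted p = 4.02e-05) and 1.65 (SE 0.20, adjusted p = 2.8e-05). The part of these tissues in the other changes was not tested.

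Rptn, the cornified envelope protein repetin, read 7.91, 7.26 and 7.85 in left and 12.36, 12.44 and 12.30 in right lungs, with a rise of 4.70 (SE 0.76, adjusted p = 0.00034). Most genes of this tissue did not pass the detection filter, and several had larger differences than the genes tested. In all, 525 probes were detected in 3 right and 0 left lungs and 73 in 3 left and 0 right lungs. Of these, 173 and 45 probes, of 161 and 45 genes, passed in a test over 26368 probes. Probes picked in this way had to differ. The largest bounds were those of Cnfn (at least 64.2-fold, adjusted p = 4.8e-05), of 1 of 2 probes of Krtdap (64.2-fold, adjusted p = 5.58e-05), of Sprr3 (48.6-fold, adjusted p = 5.73e-05), Kprp (41.9-fold, adjusted p = 0.000102), Serpinb3a (41.3-fold, adjusted p = 4.38e-05) and Lce1b (31.4-fold, adjusted p = 0.000493), all genes of keratinised epithelium. A list of 30 genes of cornified squamous epithelium, chosen after these values were seen and so without a test, had 29 on the array. Of these 24 were detected in all right lungs of day 1 and higher there than in all left lungs, and Krt13, a keratin of lining epithelium, had a mean of 5.83 in left and 14.25 in right lungs. Its summed level was 3510 to 4403 in left and 96197 to 100522 in right lungs. The same sum was 29095 to 119434 in right lungs of 3 month mice on day 3, 65795 to 114231 on day 7 and 54839 to 68998 in those of 9 month mice on day 1. It was 2856 to 4403 over all 18 left lungs of the study and 6310 to 120208 over all 18 right lungs, so not every right lung stood far above the left lungs. The keratins Krt6a and Krt6b and the desmosomal cadherins Dsg1a, Dsg3 and Dsc3 were detected on none of the arrays.

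Among the probes detected in left lungs only, the bounds were smaller. They were at least 2.44-fold for Anapc11, a subunit of the anaphase promoting complex (adjusted p = 0.000571), 2.34-fold for a probe of Cd207, the langerin of dendritic cells (adjusted p = 9.39e-05), whose other probe was detected in 1 right lung, and 2.33-fold for Foxf2, a mesenchymal transcription factor (adjusted p = 0.00767). C1qtnf3, Tinag and Zfp474 had such a probe too, but their other probes were detected on both sides.

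**Figure D4:**
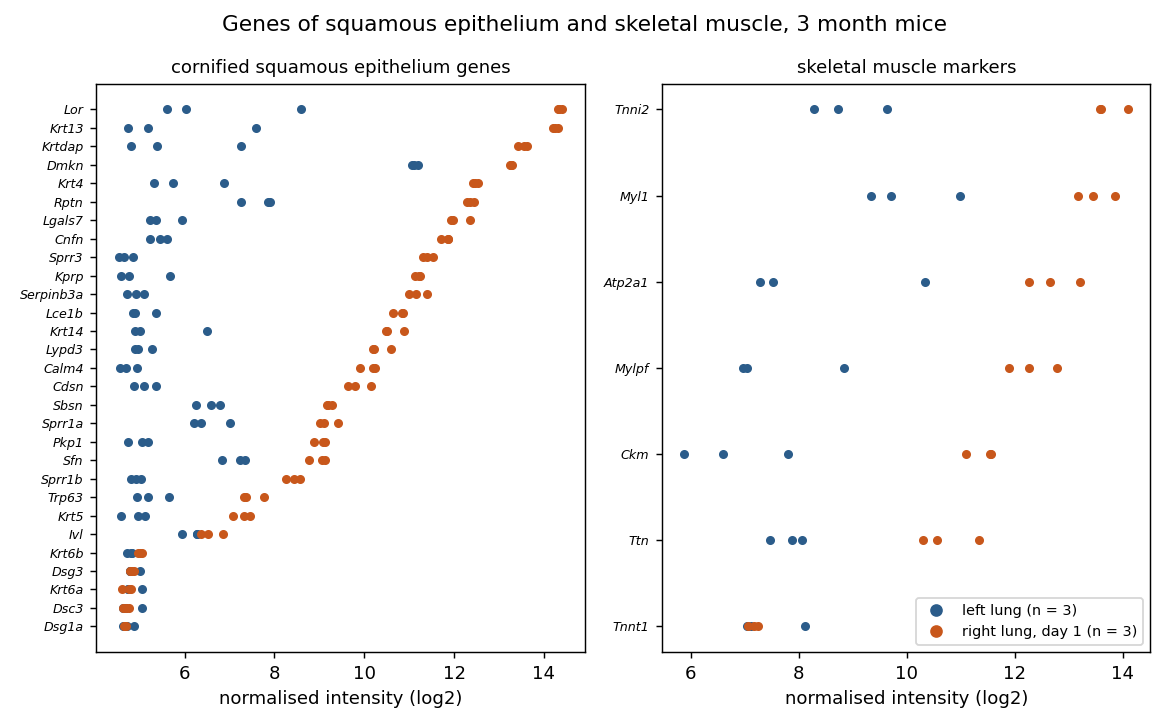
Normalised log2 intensity in left (blue) and right (orange) lungs of day 1 for 29 genes of cornified squamous epithelium and 7 tested skeletal muscle markers, with 3 points per lung side. The right lungs stand above the left lungs for 24 squamous genes detected in them, the other 5 were detected on none of the arrays, and left pool 2 is the highest left lung for the muscle genes other than Tnnt1.

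The day 1 response of 9 month mice was compared with that of 3 month mice in the same fit. It differed in 60 probes (0.38%) of 42 genes (0.355% of genes), of which 30 were higher and 12 lower in 9 month mice. Of the probes 42 were higher and 18 lower, against 70 and 53 with the authors' own log2 values, and without the pools of a given number the count of probes fell to between 3 and 27. Age and position on the chip cannot be told apart, since every chip held the younger mice in its first 3 positions and the older mice in the others. Plat, the tissue plasminogen activator, read 10.58, 10.81 and 10.80 in left and 11.47, 10.94 and 11.36 in right lungs of 3 month mice, a change of 0.53 that was not called. In 9 month mice it read 10.41, 10.69 and 10.79 in left and 12.79, 13.82 and 12.92 in right lungs. The right lungs of the older mice were thus the high group, and the responses differed by 2.02 (SE 0.33, adjusted p = 0.0245), although the adjusted p was 0.0962 without the pools numbered 2 and 0.0659 without those numbered 3. Cdkn1a, the cell cycle inhibitor p21, changed by 0.27 in 3 month and 2.16 in 9 month mice, a difference of 1.89 (SE 0.35, adjusted p = 0.0287), with 0.132 and 0.0808 without the pools numbered 2 and 3. Adamts9, a protease of proteoglycans, changed by −0.28 and 1.60. This difference of 1.88 (SE 0.22, adjusted p = 0.00194) was called in each of the 16 alternatives.

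Of the neutrophil markers that rose in 3 month mice, Clec4d, S100a9 and Mmp9 had a lower response in 9 month mice, where none of the 3 was called. The responses of Clec4d were 2.65 and 0.43, with a difference of −2.22 (SE 0.28, adjusted p = 0.00298) that was called in each of the 16 alternatives. Those of S100a9 were 2.36 and 0.24, with a difference of −2.12 (SE 0.37, adjusted p = 0.0263; 0.117 and 0.0803 without the pools numbered 2 and 3), and those of Mmp9 1.99 and 0.16, with a difference of −1.82 (SE 0.35, adjusted p = 0.0358; 0.157 and 0.106). S100a9 read 12.61, 13.02 and 12.88 in left lungs of 9 month mice, above every left lung of 3 month mice, and 13.20, 12.51 and 13.52 in their right lungs, which overlap the right lungs of 3 month mice. The summed level of the 17 neutrophil markers was 26926 to 36189 in left and 41024 to 56250 in right lungs of 9 month mice, so that the ages were apart in the left lungs and overlapped in the right. For replication and mitosis genes 0 differences between the ages were called in limma, with 4 and 2 genes at an unadjusted p under 0.05 and medians of 0.68 and 0.24 in 3 month and 0.43 and −0.08 in 9 month mice.

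**Figure D5:**
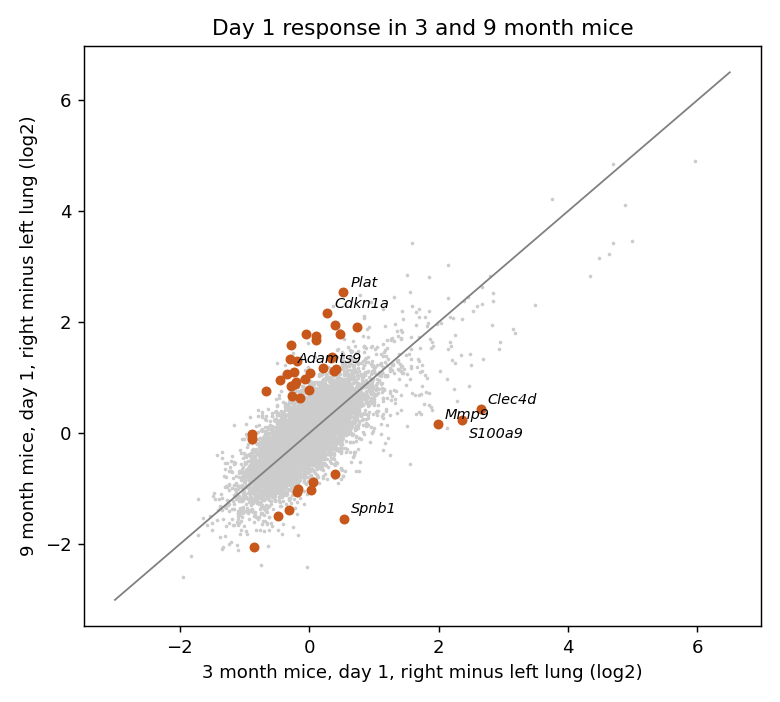
Right minus left lung on the log2 scale on day 1 in 3 month mice (horizontal) and 9 month mice (vertical) for 11835 genes, with the 42 genes whose responses differed in orange and a line of equal response. Plat, Cdkn1a and Adamts9 lie above the line, and Clec4d, S100a9, Mmp9 and Spnb1 below it.

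Of 10 tested acute phase genes 2 were higher on day 1 than on day 3. So were 2 of 19 genes of the unfolded protein response and 2 of 14 hypoxia genes. Of 13 NRF2 targets and metallothioneins 0 were called higher, with 6 differing at an unadjusted p under 0.05 in limma. Of all 11835 genes 110 were higher on day 1. Serpina3n rose by 2.46 on day 1 and 0.79 on day 3 (difference 1.67, SE 0.21, adjusted p = 0.000422), and Hyou1 by 1.58 on day 1, against a change of −0.04 on day 3 (difference 1.62, SE 0.29, adjusted p = 0.00663). Cdh16 fell by 1.71 on day 1 and changed by −0.06 on day 3, a difference of −1.65 (SE 0.19, adjusted p = 0.000236). These 3 differences were called in all 14 alternatives. Saa3 and Arg1 remained high on day 3, at 5.58 and 4.61, and were not called as different between the days. The count of probes that differed between the days was 442 (2.8%), and 166 to 362 without the pools of a given number.

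Several genes were also run by PCR on the same pools, picked by the study for their part in its model, so their counts are no independent evidence. On the arrays 7 of these 10 genes rose on day 1 and 0 fell, with a median of 0.95. Besides Retnla, Birc5, Col3a1 and Il1b these were Eln, the elastin gene (0.85, SE 0.22, adjusted p = 0.00821; 0.0884 without pool 1), Lox, which crosslinks collagen and elastin (0.96, SE 0.26, adjusted p = 0.0108; 0.11 without pool 3), and Tnc, the matricellular protein tenascin C (1.59, SE 0.43, adjusted p = 0.0105; 0.0865 without pool 1 and 0.0835 without pool 3). Cdkn1a (0.27, SE 0.25, adjusted p = 0.443), the growth factor Tgfb3 (0.14, SE 0.12, adjusted p = 0.4) and Tnfrsf12a, the receptor of TWEAK (0.56, SE 0.28, adjusted p = 0.147), were not called.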

How the data were processed

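RNA of each pool was hybridised to an Illumina MouseWG-6 v2 array, whose 45281 probes carry 30789 symbols, of which 21841 (70.9%) matched a RefSeq gene. The deposited probe intensity of each array was neither normalised nor background corrected by the authors, and the deposited detection p-value compares each probe with the array's negative controls. The authors' own log2 values, made with RMA background correction and quantile normalisation, and with the tools RMA, lumi and limma per the labels, were used as an alternative. Their versions are not given in the sources used here.

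Intensities were corrected by normexp with the detection p-values (offset 16), quantile normalised and taken to log2 with limma 3.58.1 in R 4.3.3 (statmod 1.5.0). A probe was kept if its detection p was below 0.05 on each of the 36 arrays (15795 probes, 11835 genes), and a gene was read from its kept probe with the highest mean. The ratio of right to left lung within each pool was fitted for the 6 groups of age and day, which share an estimate of the spread (12 residual degrees of freedom), and p-values were Benjamini-Hochberg adjusted over all probes. The threshold for a call was 0.05 for the adjusted p together with 1.5-fold. The code was tested on simulated data.

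The pairing comes from the mice themselves, since each pool gave both lungs. The deviations of paired lungs from their group means correlated at −0.01, −0.018 and −0.153, and the fit without the pairing as a block called 2311 probes in place of 2296. Each array is a pool of separate animals.

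The text names the 12 called genes per direction with the largest change on day 1 that did not overlap between lungs, up to 4 called genes per list with the smallest p and defining members that were not called, the genes the study measured by PCR, up to 6 genes per direction for the differences between ages and between days, and the 6 largest bounds per direction among probes detected on 1 lung side. Cxcl13, Saa1, Orm2, Ccl24, Ccl2, Il1r2, Il11 and Krt13 fall outside this rule and were named after their values were seen. The members and lists were chosen with earlier results of these data known. Alternatives changed the background correction, the normalisation, the detection filter, the thresholds, the arrays in the fit, the left lung baseline and the pools.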

Additional observations from a re-analysis of the deposited data

Results flagged for a closer look

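The response on day 1 differed between the ages by the test of the difference itself for 12 named genes. It was higher in 9 month mice for Plat (2.02), Cdkn1a (1.89), Adamts9 (1.88), Sema7a, a membrane anchored semaphorin (1.83), Pvr, a nectin-like adhesion receptor (1.64), and Adamts15, a metalloproteinase (1.58), each as the log2 response at 9 months minus that at 3 months. It was lower in 9 month mice for Clec4d (−2.22), S100a9 (−2.12), Spnb1, the spectrin of red cells (−2.08), Mmp9 (−1.82), Tppp, a tubulin binding protein (−1.13), and Ednrb, an endothelin receptor (−1.06). Without the pools of a given number 10 of the 12 lost the call at least once, and Adamts15, Pvr, Spnb1 and Ednrb lost it without each number. Only Adamts9 and Clec4d were called in every alternative run. The 9 month left lungs read higher than those of 3 month mice for Clec4d, S100a9 and Mmp9.

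The response of 3 month mice differed between day 1 and day 3, by the same kind of test, for 32 named genes. Those lower on day 1 included the cell cycle genes Cdca3 (−2.73), Cdkn3 (−2.72), Cdc20 (−2.60), Cdca2 (−2.49), Plk1 (−2.46), Prc1 (−2.44), Top2a (−1.89), Cdc2a (−1.72) and Birc5 (−1.61). The other genes lower on day 1 were Cdh16 (−1.65), Eln (−1.64), the mucin Muc16 (−1.44), Col3a1 (−1.42), Foxj1 (−1.37), Wfdc10 (−1.12), Ppp1r1b (−1.0006), Thbs3 (−0.95), Tinag (−0.86), Lama3 (−0.72) and Emp2 (−0.54). Those higher on day 1 were S3-12, a coat protein of lipid droplets (2.15), Trim72 (1.81), Ntrk2 (1.73), Epas1, the hypoxia factor HIF-2 alpha (1.70), Serpina3n (1.67), Hyou1 (1.62), the signal inhibitor Smad6 (1.56), Lcn2 (1.37), the hormone sensitive lipase Lipe (1.28), Ankrd37 (1.27), Col8a1 (1.08) and Spp1 (0.94). Of the 32, 11 were called in every alternative run and 16 lost the call without the pools of some number, among them Muc16, Trim72 and Emp2 without each number. Against the mean of 9 left lungs the difference was 0.33 for Spp1, which kept the call in 6 of 14 alternatives, and −0.40 for Ppp1r1b. No cause was tested for either set.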

How the results depend on the processing

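Of 152 named genes called on day 1, 94 kept their call under every alternative run, 58 lost it under some and 40 lost it without a pool, and no alternative moved the median of all probes by more than 0.046. The 2296 probes called on day 1 became 1245 with the authors' log2 values and 4640 without the fold threshold, 2311 with no replicate block, and 1786 to 2460 without a pool. The 60 probes that differed between the ages became 95 with normexp at an offset of 50, 32 with scaling to the 75th percentile, 123 with the authors' values, 96 with detection p under 0.01, 6 with detection on at least 3 arrays, 7 with no detection filter, 5 with only the arrays compared, 117 without the day 3 pools, 277 against the mean of 9 left lungs, 127 against left lungs of other chips and 174 with no replicate block, and 3 to 27 without the pools of a number. The 442 probes that differed between the days became 111 with only the arrays compared and 792 against the mean of 9 left lungs, 565 with no replicate block, and 166 to 362 without the pools of a number. The 510 probes of the left lung comparison became 175 at an offset of 50, 87 with the authors' values, 1145 with detection on at least 3 arrays, 1103 with no filter and 1922 without the fold threshold, 320 to 564 without a pool, and stayed 510 with the pool as a replicate block. The 598 probes detected on 1 side became 1112 to 1256 without a pool, where fewer arrays must detect or miss a probe. Changes on day 1 turned sign for Foxj1 (0.0495) and Cdc20 (0.0484) against left lungs of other chips, and for Plk1 (0.13) and Sema7a (0.0016) against the mean of 9 left lungs, or 0.23 and 0.0242 against other chips. Without a pool they crossed 0 for Plk1 (−0.15 to 0.0131), Sema7a (−0.30 to 0.21), Adamts15 (−0.16 to 0.45), Cdca3 (−0.0170 to 0.53) and Prc1 (−0.0082 to 0.33), none of which was called. Foxj1 was called in the main analysis, and the cause was not tested. Signal over background limits dim probes, and a baseline of other chips could not be had for the day comparison, nor a fit without day 3 pools for the day and left lung comparisons.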
